A study of Mus musculus with 2 samples.

Results

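The genes described here encode the proteasome, the barrel-shaped protease that degrades ubiquitin-tagged proteins in the cytoplasm and nucleus. They were taken as all biological probes on the array whose gene name begins with Psm, followed by one of the letters a to e and a number, without Psmb8, Psmb9 and Psmb10, the catalytic subunits that replace the standard ones after interferon. This gave 39 genes with 48 probes, of 29924 gene names with 39429 probes on the array. The name rule is wider than the label of constitutive subunits, because it also takes the base chaperones Psmd5, Psmd9 and Psmd10, the activators Psme1, Psme3 and Psme4, and the tissue-restricted core subunits Psma8 of the testis and Psmb11 of the thymus. A gene was represented by its brightest probe among those well above background in the control or the BIO channel of both arrays. By this filter 38 genes with 47 probes were tested, and Psmb11 was not, since its probe was not well above background in any channel.

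Total RNA came from ureters that had been explanted from wildtype NMRI mouse embryos at E12.5, with sex not determined, and kept in culture for 18 h in medium without serum. The BIO group received 10 µM BIO (6-bromoindirubin-3-oxime), an inhibitor of the kinase GSK3 that activates canonical WNT signaling, and the control group received the solvent DMSO at 2 parts in 1000. Each group had 2 pools of ureters, and each of 2 two-color Agilent arrays set a BIO pool against a control pool, with BIO in the red channel of replicate 1 and in the green channel of replicate 2. The values below are log2 ratios of BIO over control with the second array turned accordingly, so that a negative value means less signal with BIO, and normalized intensities, which are comparable within a probe and an array only. With 2 ratios per gene, their number limits the precision.

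The proteasome consists of a core particle and regulatory particles that cap it. The core is a stack of rings of alpha subunits, which form the gate, and beta subunits, of which Psmb5, Psmb6 and Psmb7 carry the active sites. In the regulatory particle, a base with a ring of ATPases (Psmc1 to Psmc6) unfolds the substrate and pushes it into the core, while a lid of Psmd subunits holds Psmd14, the enzyme that removes the ubiquitin chain. Dividing and growing cells use the complex to clear cyclins and other short-lived proteins, and beta-catenin itself is degraded by it once GSK3 has phosphorylated it.

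No proteasome gene rose with BIO and few fell. Of 38 members, 0 had a higher and 3 a lower signal with an adjusted p under 0.05 (limma with Benjamini-Hochberg adjustment over all probes tested). Among all 21598 genes tested, 9.14% rose and 14.8% fell by the same call, against 0% and 7.89% of the proteasome genes. At an unadjusted p below 0.05, 0 members were higher (15.2% of all genes) and 9 members, or 23.7%, were lower (21.5% of all genes). The members that fell were the lid subunits Psmd8 and Psmd6 and the core subunit Psmb5. By the cut-off that the study applied to its other arrays, a ratio of 2-fold or more with like sign on each array and an intensity of at least 100, 0 of 38 members were higher and 0 were lower, whereas 0.945% of all genes were higher and 2.12% lower. For this cut-off the ratios came from the scanner software's processed signals, centered on the median of each array, and the intensity was that of the brighter channel. With the normexp and loess ratios 0 members passed it too.

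Probes of chosen members are shown here, as 60-base sequences in gene orientation with mm9 positions from the array annotation. They were picked as probes that join 2 exons or were read as coding. The brighter Psmb5 probe, which gave the call, is not among them. Shown are the probes of both lid subunits that fell and the dimmer probe of Psmb5, the catalytic subunit whose probes differed in the call. The others are those of the trypsin-like subunit Psmb7, the alpha subunit Psma4, the ATPase Psmc4 and the deubiquitinating enzyme Psmd14. A range longer than the probe means that the probe joins 2 exons.
Psmd8, chr7:29961170-29962121, minus strand: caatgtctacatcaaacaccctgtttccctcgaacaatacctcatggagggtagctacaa
Psmd6, chr14:14946703-14946762, minus strand: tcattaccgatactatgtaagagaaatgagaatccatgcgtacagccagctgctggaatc
Psmb5, chr14:55233161-55233220, minus strand: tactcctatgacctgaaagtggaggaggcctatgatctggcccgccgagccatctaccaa
Psmb7, chr2:38468966-38489385, minus strand: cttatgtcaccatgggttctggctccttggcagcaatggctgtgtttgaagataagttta
Psma4, chr9:54804685-54805444, plus strand: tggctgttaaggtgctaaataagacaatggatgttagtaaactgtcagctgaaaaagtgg
Psmc4, chr7:28827132-28827373, minus strand: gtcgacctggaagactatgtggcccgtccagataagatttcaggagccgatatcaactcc
Psmd14, chr2:61599058-61599117, plus strand: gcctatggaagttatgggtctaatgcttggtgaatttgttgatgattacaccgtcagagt

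The members lay close to 0 and mostly on its negative side. The mean log2 ratios ran from -0.47 for Psmd8 to 0.19 for Psmd14, so that all 38 lay within 0.5 of 0, as did 84.9% of all genes. In 26 members (68.4%) the ratio was below 0 on both arrays, which held for 38.1% of all genes, in 3 members it was above 0 on both, and in 9 the arrays had opposite signs. The median over the members was -0.16, beside -0.01 over all genes tested. It was -0.17 on array 1 and -0.08 on array 2, and with median centering of each array in place of the loess curve it was -0.04, beside -0.04 over all genes under that setting. In no member did the 95% confidence interval of the mean log2 ratio reach a 2-fold difference, the lowest bound being -0.72 and the highest 0.44. In 33 of 38 members (86.8%) the interval lay inside 1.5-fold either way, compared with 69.7% of all genes.

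**Figure D1:**
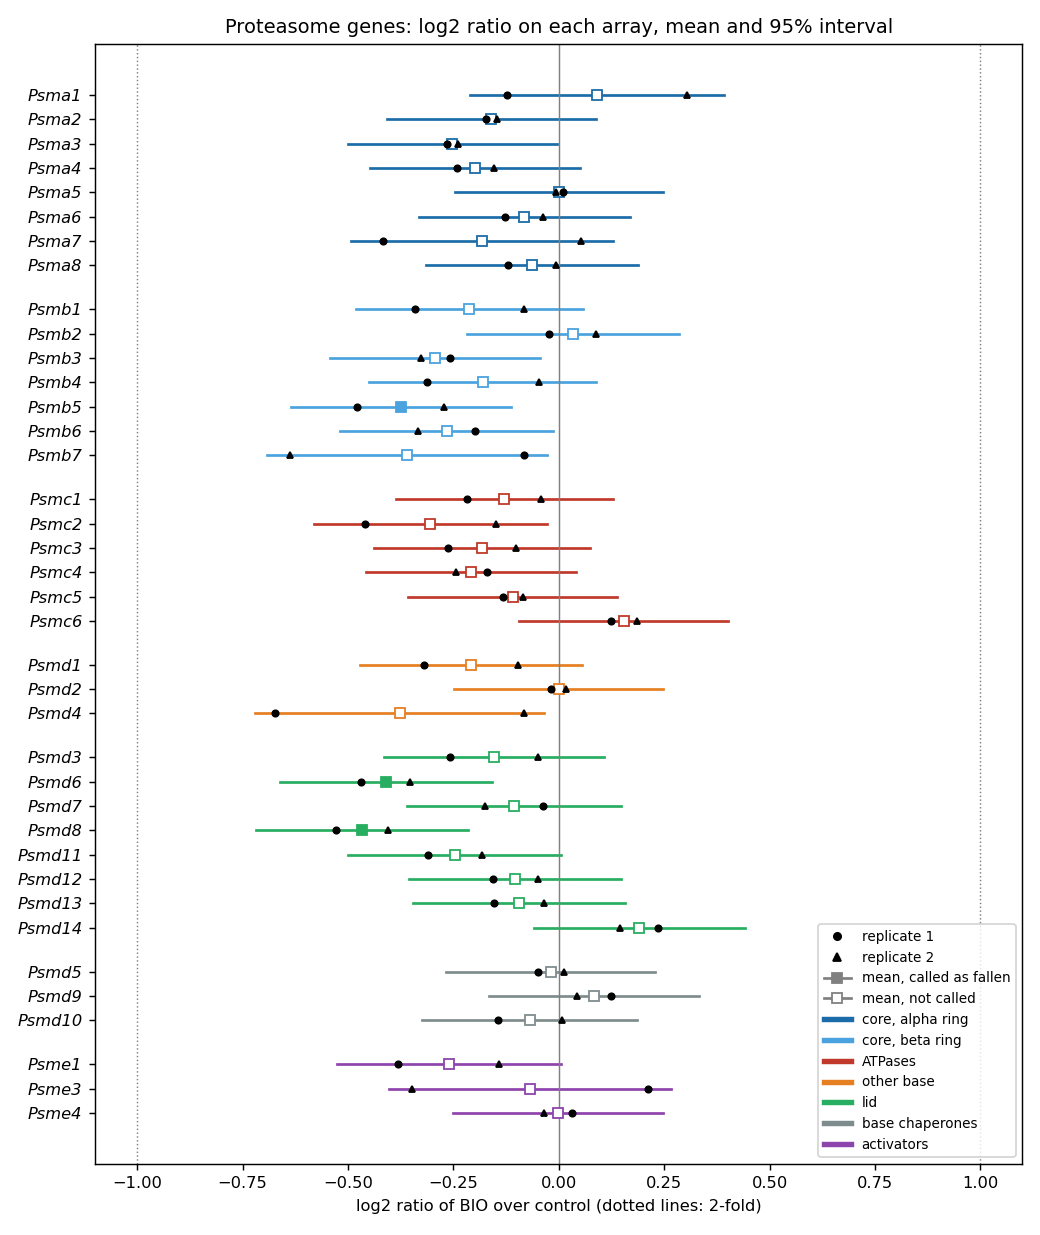
Log2 ratio of BIO over control for the 38 proteasome genes tested, by subcomplex. Circles are replicate 1, triangles replicate 2, squares the mean with its 95% confidence interval from limma, filled where the gene fell at an adjusted p below 0.05, and dotted lines mark 2-fold. The filled squares are Psmb5, Psmd6 and Psmd8, most of the other means lie between -0.38 and 0, and no interval reaches a dotted line.

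In the alpha ring, 0 of 8 genes passed the test in either direction and the median log2 ratio was -0.12. Psma3 had the lowest mean of the ring. Its normalized intensity was 113600 in control and 94510 in BIO on array 1, and 102800 in control and 87110 in BIO on array 2. BIO was the lower channel of each array, the ratios were -0.27 and -0.24, and their mean of -0.25 ± 0.11 (SE, n = 2) had an adjusted p of 0.132. Psma4, whose N-terminal tail belongs to the gate of the channel, followed with -0.24 and -0.15, a mean of -0.20 and an adjusted p of 0.232, and its second probe gave -0.21. Psma5 was the member with the smallest ratio of the ring. It had 104700 in control and 105300 in BIO on array 1 and 94430 and 93920 on array 2, which is a mean ratio of 0.00 with an interval from -0.25 to 0.25. The arrays disagreed in sign for Psma1 (-0.12 and 0.30) and Psma7 (-0.42 and 0.05). Psma8, which replaces one alpha subunit in the testis, was dim, with processed signals of 26.9 to 29.9 in the 4 channels, and its mean ratio was -0.06.

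The beta ring had the lowest median of the core, -0.27 over 7 genes, of which 1 fell and 0 rose. Psmb5 carries the chymotrypsin-like site, the main target of proteasome inhibitor drugs. Its brightest probe, at chr14:55232957-55233016 on the minus strand of mm9, had a normalized intensity of 70070 in control and 50290 in BIO on array 1, and of 57290 in control and 47470 in BIO on array 2. BIO was lower than its own control on both arrays. The ratios were -0.48 and -0.27, the mean was -0.37 ± 0.11 (SE, n = 2), or 1.30-fold lower, and the adjusted p was 0.0467, close to the threshold. The second Psmb5 probe, printed above, lay nearer the start of the transcript and read -0.07 and -0.33, with a mean of -0.20 and an adjusted p of 0.270, so the fall of Psmb5 was called with 1 of its 2 probes. The call was also lost when the probes were averaged, where the adjusted p was 0.0726.

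The other catalytic subunits did not pass. Psmb7, with the trypsin-like site, had 34860 in control and 32910 in BIO on array 1 and 31870 in control and 20490 in BIO on array 2. The channels were close on array 1 and apart on array 2, so that the ratios were -0.08 and -0.64, one of the widest gaps between arrays among the members, and the mean of -0.36 had an adjusted p of 0.113. Psmb6, with the caspase-like site, had 110000 in control and 95870 in BIO on array 1 and 102500 in control and 81320 in BIO on array 2. Its ratios of -0.20 and -0.33 had the same sign, and the mean was -0.27 with an adjusted p of 0.121. Of the subunits without an active site, Psmb3 had ratios of -0.26 and -0.33 (adjusted p = 0.0887), while Psmb2 had -0.02 and 0.09 with a mean of 0.03. Over the whole core of 15 genes the median was -0.18, and it was 0.00 after median centering, where the alpha ring had a median of 0.04 and the beta ring of -0.02.

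**Figure D2:**
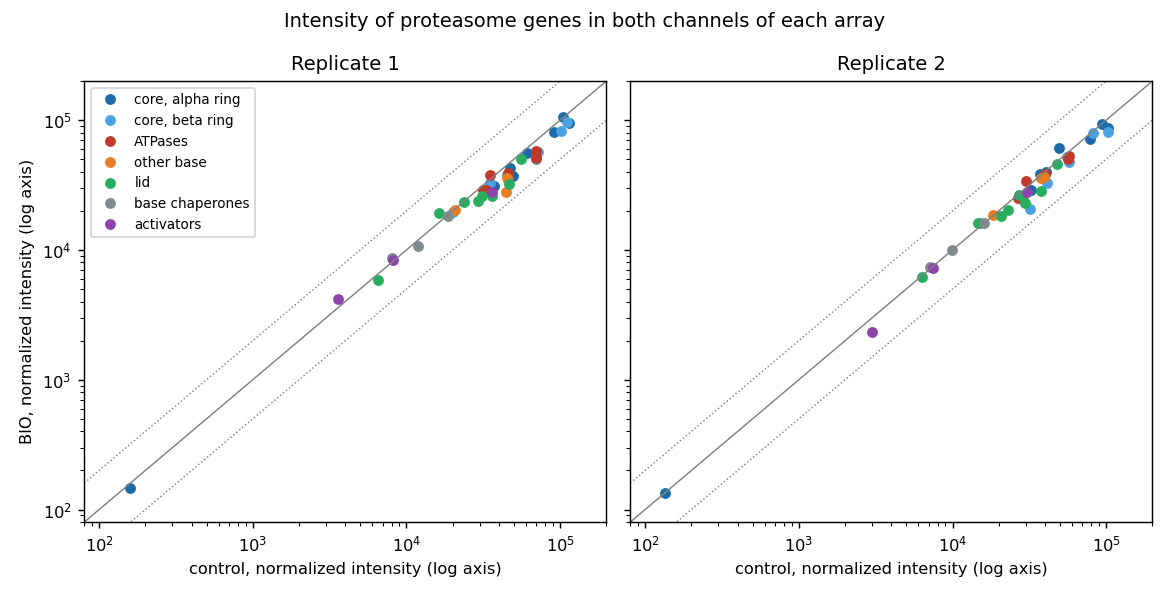
Normalized intensity of the 38 proteasome genes tested in the control channel (horizontal, log axis) and the BIO channel (vertical, log axis) of each array, colored by subcomplex. The solid line marks equal intensity and dotted lines mark 2-fold. Every point lies between the dotted lines on both arrays, and the point far below the others is the testis subunit Psma8, at 158.5 in control and 145.8 in BIO on array 1.

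Among the ATPases 0 of 6 genes rose and 0 fell, and the median log2 ratio was -0.16. Psmc2 had the lowest mean, with an intensity of 70010 in control and 50910 in BIO on array 1 and of 56120 and 50590 on array 2. BIO was lower in each pair, by more on the first array, and the ratios of -0.46 and -0.15 averaged -0.30 with an adjusted p of 0.108. A second Psmc2 probe that overlaps the first gave -0.43 and -0.22. Psmc4 had -0.17 and -0.24, with a mean of -0.21 and an adjusted p of 0.210, and Psmc5 was the least displaced with a mean of -0.11. Psmc6 differed in sign from the rest of the ring, with ratios of 0.12 and 0.18, a mean of 0.15 and an adjusted p of 0.356. The confidence interval of Psmc6 ran from -0.09 to 0.40 and included 0, so a difference in direction within the ring was not established. With median centering the median of the ATPases was -0.01.

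In the part of the base that is not an ATPase, 0 of 3 genes passed. Psmd4 is a receptor that binds the ubiquitin chain of the substrate. Its intensity was 44700 in control and 28030 in BIO on array 1 and 37760 in control and 35680 in BIO on array 2. The channels were apart on array 1 and close on array 2, which gave ratios of -0.67 and -0.08, the widest gap between arrays among the 38 members, and a mean of -0.38 with an adjusted p of 0.108. Its mean was lower than that of the called Psmb5, but its arrays differed more. Psmd1, a scaffold subunit, had -0.32 and -0.10. Psmd2, the other scaffold, had -0.02 and 0.02, and its mean of 0.00 had an interval from -0.25 to 0.25.

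The lid held the 2 lowest members. Psmd8, a lid subunit that joins late in lid assembly, had a normalized intensity of 46370 in control and 32140 in BIO on array 1, and of 37870 in control and 28600 in BIO on array 2. BIO was the lower channel on both arrays. The ratios were -0.53 and -0.41, the mean was -0.47 ± 0.11 (SE, n = 2), or 1.38-fold lower, and the adjusted p was 0.0181. Psmd6, another structural lid subunit, had 36020 in control and 26030 in BIO on array 1 and 29570 in control and 23150 in BIO on array 2. Again BIO was lower on both arrays, and the ratios of -0.47 and -0.35 gave a mean of -0.41 ± 0.11 (SE, n = 2), or 1.33-fold lower, with an adjusted p of 0.0297. Both calls were lost with the scanner software's processed signals, where the adjusted p was 0.0796 for Psmd8 and 0.0918 for Psmd6, and with median centering, where it was 0.371 and 0.417.

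The other 6 lid genes did not pass, and Psmd14 stood at the opposite end. Its intensity was 16210 in control and 19100 in BIO on array 1 and 14650 in control and 16200 in BIO on array 2. BIO was the higher channel of each array, and the ratios of 0.24 and 0.15 gave a mean of 0.19 ± 0.11 (SE, n = 2), the highest of all members, with an adjusted p of 0.251. Psmd13 had the ratio nearest 0 in the lid, with -0.15 and -0.04 and a mean of -0.09. Psmd3, Psmd7, Psmd11 and Psmd12 had means between -0.25 and -0.10. The median over the 8 lid genes was -0.13 (-0.21 on array 1 and -0.11 on array 2), and it stayed at -0.12 after median centering.

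The base chaperones and the activators, which assist assembly or open the core without ubiquitin, gave no calls. The chaperones had means of -0.02 for Psmd5, 0.08 for Psmd9 and -0.07 for Psmd10, also known as gankyrin. Psmd9 was above 0 on both arrays and with both of its probes. Among the activators, Psme1 had -0.38 and -0.14 with an adjusted p of 0.144. Psme3, which forms the activator of the nucleus, had 3585 in control and 4153 in BIO on array 1 but 2993 in control and 2350 in BIO on array 2. These ratios of 0.21 and -0.35 had opposite signs and averaged -0.07. Psme4 had 0.03 and -0.04 with a mean of 0.00, and its second, dimmer probe had -0.12. No probe bore the name of Psme2, the partner of Psme1, but 3 probes were named Psme2b, a close copy of it, and had means of -0.36, -0.25 and 0.00 with none called. Whether they also detect Psme2 was not tested.

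The agreement between arrays and between probes sets how far single members can be read. Over the members the median absolute difference between the 2 arrays' log2 ratios was 0.120, compared with 0.164 over all genes tested. It was largest for Psmd4, at 0.592, followed by Psme3 with 0.561, Psmb7 with 0.554, Psma7 with 0.470 and Psma1 with 0.427. BIO had the other dye on the second array, so dye effects and differences between pools cannot be told apart in these gaps. Of the members, 9 had several probes, and in all of them but Psmb5 the probes led to the same call.

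**Figure D3:**
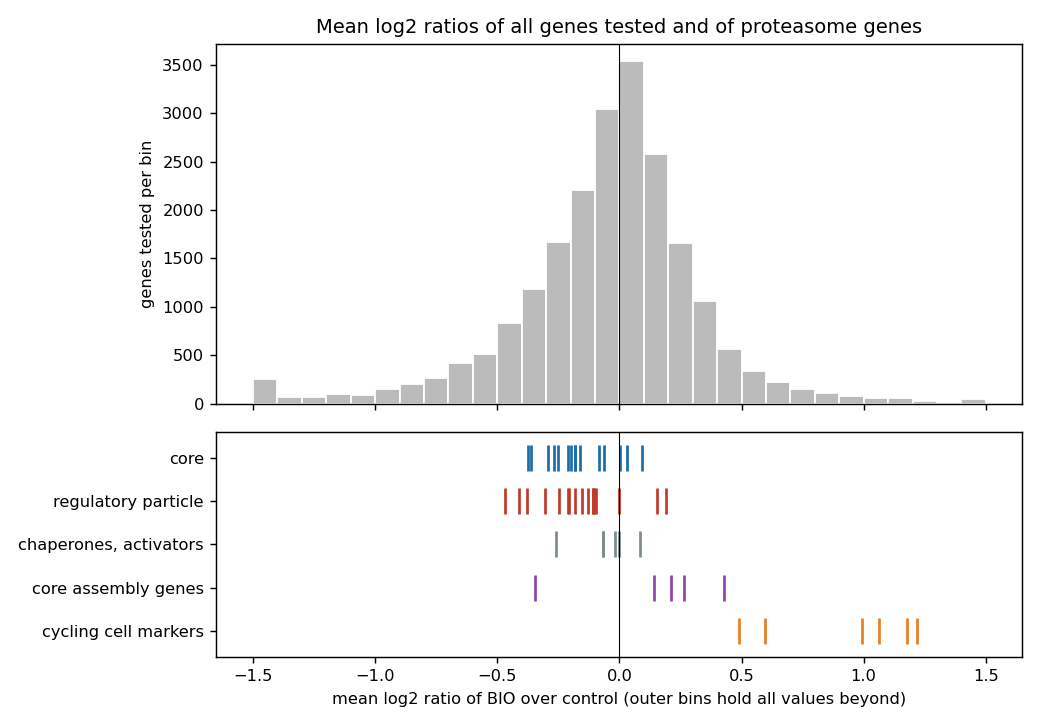
Upper panel: number of genes tested per bin of mean log2 ratio, with all values beyond 1.5 in the outer bins. Lower panel: 1 line per gene on the same axis for the core, the regulatory particle, the chaperones and activators, the genes that assemble the core, and markers of cycling cells. The proteasome genes lie between -0.47 and 0.19, near the peak of all genes, 4 of 5 core assembly genes lie above 0, and the cycling markers lie from 0.49 upward.

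Further genes of the pathway were read from lists of inducible subunits, assembly factors, associated proteins, regulators, genes of ubiquitin and its activation, and shuttle factors. Of 34 such genes tested, 0 rose and 3, or 8.82%, fell by the same limma call, beside 9.14% and 14.8% of all genes. At an unadjusted p below 0.05, 3 were higher (8.82%, against 15.2% of all genes) and 9 were lower (26.5%, against 21.5%). Shfm1, the small lid subunit now called Sem1, had 123600 in control and 78860 in BIO on array 1 and 97480 in control and 80850 in BIO on array 2. Its ratios of -0.65 and -0.27 gave a mean of -0.46 with an adjusted p of 0.0335. This mean was close to those of Psmd8 and Psmd6, the lid members that fell. Of the 8 lid members, 6 were not called, and the median over the lid was -0.13. Ubqln2, a shuttle factor that carries ubiquitylated proteins to the proteasome, had the lowest ratio of these genes (-0.62 and -0.58, mean -0.60, adjusted p = 0.00555). Zfand5, an activator of the proteasome in muscle, fell with a mean of -0.44 (adjusted p = 0.0278). With the processed signals the means of Shfm1, Ubqln2 and Zfand5 were -0.47, -0.59 and -0.39 and none passed, and with median centering Ubqln2 alone did (mean -0.62, adjusted p = 0.0379).

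Psmg1, Psmg2, Psmg3 and Psmg4, which pair into chaperones of the alpha ring, were above 0 on both arrays, with means of 0.27, 0.14, 0.21 and 0.43. None passed the test, Psmg4 came nearest with an adjusted p of 0.0526, and with median centering the means stayed above 0 while Psmg2 and Psmg3 read -0.06 and -0.14 on array 1. Pomp, the chaperone of the beta ring, had -0.49 and -0.20 with a mean of -0.35 and an adjusted p of 0.0727. The subunits that replace Psmb5, Psmb6 and Psmb7 in immune cells were not called either. Psmb8 had a mean of -0.40 (adjusted p = 0.0515), Psmb9 of -0.35 (adjusted p = 0.0772), both with dim probes, and Psmb10 of -0.03. Nfe2l1, the transcription factor that raises proteasome gene expression when the protease is short, had a mean of -0.17 (adjusted p = 0.309), and 0 of 8 regulators passed.

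Several marker lists in the same RNA had median log2 ratios farther from 0 than the -0.16 of the proteasome genes. The WNT targets Axin2, Lef1, Nkd1 and Sp5 all rose, with means from 1.07 to 2.80. All 6 markers of cycling cells rose (median 1.03), all 6 endothelial markers fell (median -2.10), and 7 of 8 mesenchymal and 5 of 8 epithelial markers fell (medians -0.68 and -0.90). Of the blood cell lists, 2 of 4 macrophage and 2 of 3 erythroid markers fell, and of 4 kidney mesenchyme markers Wt1 rose. Every marker of these lists was well above background in at least the control channel of both arrays, so none was absent. The medians of the WNT target, cycling, endothelial, mesenchymal and epithelial lists kept their sign under each scaling tried, but the calls did not all hold. With the processed signals 4 mesenchymal and 4 epithelial markers fell and 4 cycling markers rose, with median centering these counts were 3, 5 and 5, and the deposited table gave 0, 0 and 2. Of the endothelial markers 6 fell under the first pair of settings and 2 in the deposited table, which also called 2 of the 4 WNT targets. The erythroid calls and that of Wt1, whose ratios were 0.18 and 0.98 (adjusted p = 0.0470), were lost under all of these settings. The summed normalized intensity of the endothelial markers went from 65600 in control to 10600 in BIO on array 1 and from 61900 to 17000 on array 2, and that of the cycling markers from 123000 to 209000 and from 110000 to 202000. Bright probes weigh most in such sums, so they describe the lists less evenly than the medians do. In whole explants, fewer cells of a type and less RNA per cell cannot be told apart, and the part of these shifts in the proteasome values was not tested.

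The sequence before the start of the genes was read from RefSeq promoter windows of GRCm38.p6, in which 32 of 39 genes were found with 34 promoters. Psma8, Psmb1, Psmb2, Psmb7, Psmc3, Psmd3 and Psmd7 were not matched. In the 250 bases before the start, 8 motifs were searched on both strands. The letters CCGGAAG, a binding motif of ETS factors, were in 35.3% of the members' promoters and in 6.91% of all 32851 promoters, and GGCGGG, the GC box of SP factors, in 70.6% and 32.5%. TGACNNNGC, the core of the element that NFE2L1 and NFE2L2 bind, was in 14.7% and 10.2%, and CCAAT, the NF-Y box, in 38.2% and 33.8%. TATAAA was in 8.82% and 12.4%, and CACGTG in 8.82% and 6.02%. The TCF/LEF motif CTTTGAT was in 1 of the 34, that of Psmd10 (2.94% against 3.21% of all), and its variant CTTTGTT also in 1, again Psmd10 (2.94% against 5.03%). Some matches overlapped one of another motif, namely 1 each for the TCF/LEF motif, the NFE2L1 element, the NF-Y box and the GC box. The windows below show 1 match in each of the 3 genes that fell and the TCF/LEF match of Psmd10, with the motif in capitals and the sequence in gene orientation, all on the minus strand of GRCm38.p6.
Psmd8, chr7:29180709-29180748, 58 bases before the start: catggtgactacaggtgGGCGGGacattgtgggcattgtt
Psmd6, chr14:14120967-14121007, 45 bases before the start: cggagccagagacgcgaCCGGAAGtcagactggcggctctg
Psmb5, chr14:54618017-54618059, 47 bases before the start: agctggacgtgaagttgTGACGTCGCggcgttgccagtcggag
Psmd10, chrX:140956717-140956757, 29 bases before the start: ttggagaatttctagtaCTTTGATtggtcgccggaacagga
The ratios of Psmd10 were -0.14 and 0.01, and a link between any motif and the ratios was not tested. These matches describe letters in the windows and no binding was measured.

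The ratios of the members depended on the normalization within the array. The median over the members minus that over all genes was -0.149 with normexp and loess, -0.145 with the processed signals and -0.00890 with median centering. The number of members below 0 was 32, 30 and 23 of 38 in the same order. Of all genes, 11089 of 21598 were below 0 with normexp and loess. With median centering the median over all genes was itself below 0, at -0.04. Psmd8, Psmd6, Psmb5, Psmb7 and Psmd4 stayed below 0 under each of these settings and in the deposited table of ratios, while Psma3 and Psmb6 came to 0.02 and 0.00 with median centering. Psmd14 and Psmc6 stayed above 0 throughout.

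**Figure D4:**
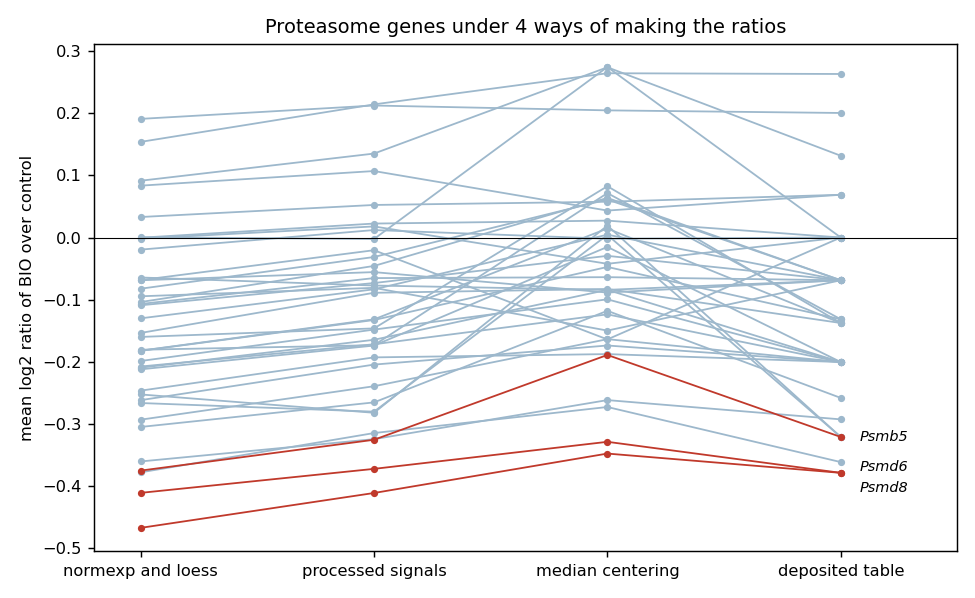
Mean log2 ratio of BIO over control (vertical axis) of each of the 38 proteasome genes under 4 ways of making the ratios (horizontal axis), with 1 line per gene and the 3 genes that fell in red. The red lines stay below 0 in all settings, while the median over all members moves from -0.16 with normexp and loess to -0.04 with median centering, where 23 of 38 members lie below 0. Under median centering the median over all genes is also -0.04.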

How the data were processed

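Total RNA of 2 BIO and 2 control pools of E12.5 ureter explants was labeled with AlexaFluor555 (green) or AlexaFluor647 (red) and hybridized in pairs to 2 arrays, each taken as 1 biological replicate. Per the file headers and labels, the authors used Agilent Feature Extraction 10.7.3.1. Their deposited tables give mean spot and median local background intensities, not corrected, and processed signal intensities, which the software had background-subtracted and dye-normalized. A further deposited table holds scores of the authors, given to 1 decimal, whose making is not given in the sources used here. Set against the processed ratios, it follows the signed fold of BIO over control (correlations of log2 values of 0.988 and 0.982, median of the column 1 on both arrays), and its centering stays unknown. It served as an alternative only.

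Spot intensities were background-corrected by normexp (offset 50) and normalized by loess within each array in limma 3.58.1 (R 4.3.3), with control spots and outlier spots (3.49% and 3.16%) at weight 0 and then left out. The 4 spots of a probe were averaged, the swapped array was turned, and both ratios were tested against 0 with lmFit and eBayes (prior degrees of freedom 7.14), with Benjamini-Hochberg adjustment over 28824 probes. The ratios of both arrays correlated at 0.801 over probes. The fit was also run on ratios simulated from its own fitted prior, without a dye effect. That checks the code and cannot show how well the model suits these arrays. Named with full values were, per subcomplex, the 2 members with the largest and the 1 with the smallest absolute mean ratio. The catalytic subunits, Psmd4, Psmd14, Psme3, members not tested, and further probes that differed in call or sign were also named. Psma1, Psma7, Psmb3 and Psmc6 were named after their values were seen. Among the pathway genes the rule named called genes only, so Psmg1 to Psmg4, Pomp, Psmb8 to Psmb10 and Nfe2l1 were named outside it. The members, lists, motifs and tests were chosen with earlier results of these data known. Alternatives changed the centering, offset, filter, probes of a gene or prior 1 at a time, or left out an array. The processed signals replace background correction and normalization together, and the deposited table also changes centering and rounding. Some genes of the pathway lists are not reported here.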

Additional observations from a re-analysis of the deposited data

How the results depend on the processing

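The limma p-value sets the mean of only 2 ratios against 0, with a standard error drawn from their spread and a pooled prior. A member that missed the threshold was not shown to be without change. With the deposited table, rounded so that 10 members had equal values on both arrays, 1 member rose (Psmc6) and 5 fell. Under median centering 0 members fell and under the processed signals 0, and Psmb5 also lost its call with an offset of 16, without the filter, with averaged probes and in the deposited table. In the other settings tried, 2 or 3 members fell and 0 rose. Over all genes, those settings gave 9.74% to 15.8% fallen and 5.99% to 10.4% risen. Of all genes, 9.14% rose and 14.8% fell with normexp and loess, 3.83% and 8.99% under median centering, 3.71% and 5.21% from processed signals, and 8.94% and 6.11% in the deposited table. The causes were not tested.

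Among the 34 pathway genes, the number that rose was 1 under median centering, 1 with averaged probes, 1 with an intensity trend in the prior and 3 in the deposited table, and the number that fell was 1 under median centering, 0 from the processed signals and 2 to 4 in the other settings. With median centering the median log2 ratio was -0.0448 over the members, 0.00415 over the core, a reversed sign, and -0.0125 over the ATPases. Leaving out each array in turn gave medians from -0.172 to -0.0825 over the members, from -0.199 to -0.0832 over the core, from -0.195 to -0.0933 over the ATPases and from -0.207 to -0.113 over the lid, the values nearer to 0 being those without replicate 1, and 0 members passed the 2-fold cut-off either way. Single members changed sign. With median centering 9 of 38 turned above 0, among them Psma3 (0.0192), Psmb6 (0.00415) and Psmd2 (0.0272); with the processed signals Psma5 (-0.00240), Psmd2 (0.0224), Psmd5 (0.0120) and Psme4 (0.0178); with an offset of 16 Psmd2 (0.00352) and Psme4 (0.00198). In the deposited table Psma5, Psmd2, Psmd5, Psme3 and Psme4 were at 0. Each array set 1 BIO pool against 1 control pool, so the test of the ratios against 0 was itself paired by array. The array is the unit of the test.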
